A study of Homo sapiens with 6 samples.

Results

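Genes for small nucleolar RNAs (snoRNAs) and small Cajal body RNAs (scaRNAs) were followed in HCT116 cells, a human colorectal carcinoma line, during treatment with Nutlin-3a, a small molecule that binds HDM2. Members were the genes whose symbol starts with SNORA, SNORD or SCARNA and whose counts added up to at least 20 over the 6 RNA-seq libraries. This gave 83 of the 57905 genes in the count matrix: 40 SNORA, 37 SNORD and 6 SCARNA genes, out of 861 genes with such symbols, of which 259 had at least 1 count. Because total counts chose the members, a member's level is a description here. At the edge of the rule, SNORD62A and SNORA59A had totals of 20 counts, while a gene copy each of SNORA31, SNORA20 and SNORA12 and the gene SCARNA10 had 19 and were left out.

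Each group had 2 biological replicates: Nut 0h, cells that received the vehicle DMSO, and Nut 1h and Nut 10h, cells exposed to 10 µM Nutlin-3a for 1 h and 10 h. All groups were HCT116 cells, so the data describe 1 line. Total RNA was purified with the RNeasy Mini Kit, a column type that retains short RNAs poorly, and the library kit, its strandedness and any selection of polyadenylated RNA are not given in the sources used here. Counts assigned to genes ranged from 26068076 to 35473485 per library, and the members held 9824 of them in all. MDM2, the gene of HDM2, rose against Nut 0h by 2.19 after 1 h and 3.75 after 10 h on the log2 scale, and CDKN1A by 3.84 after 10 h. The epithelial markers EPCAM, KRT8, KRT18 and CDH1 were at 2211 normalized counts or more in each library, VIL1 at 9.66 or less and the leukocyte marker PTPRC at 1.86 or less. COL1A1, usually a fibroblast marker, was at 782 to 1394 normalized counts, and VIM, also expressed in fibroblasts, at 25.2 to 84.7.

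Box C/D snoRNAs (SNORD genes) guide the 2′-O-methylation of ribosomal and spliceosomal RNA and are bound by fibrillarin, NOP56, NOP58 and SNU13. Box H/ACA snoRNAs (SNORA genes) guide pseudouridylation with dyskerin, NHP2, NOP10 and GAR1, and scaRNAs guide both kinds of modification on spliceosomal RNAs in Cajal bodies. Most human snoRNAs are not transcribed on their own but are cut out of introns of host genes, many of which encode ribosomal proteins or factors of ribosome production. A count on such a gene can therefore come from the mature RNA or from unspliced or excised host intron, and these counts do not tell the sources apart.

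In the GENCODE annotation on GRCh37, 55 members lay in an intron of a same-strand host, 17 overlapped an exon of a same-strand gene, 9 had no host and 2 (SNORD62A and SNORD62B) had no entry in that annotation. The C box (TGATGA) was searched in the first 20 bases and the D box (CTGA) in the last 15 bases of each gene model of at most 300 bases, and ACA in its last 8 bases, all on the gene's own strand. Both the C and the D box were found in 21 of 33 SNORD members (63.6%), against 0 of 38 SNORA members and 0 of 33 windows of the same length 1000 bases upstream of the SNORD members. The D box alone was found in 29 of 33 SNORD members and 1 of 33 upstream windows. The ACA triplet was found in 33 of 38 SNORA members (86.8%), in 8 of 33 SNORD members (24.2%) and in 2 of 38 windows upstream of the SNORA members (5.26%). The motifs were a description of these letters only, and the classes named by the symbols matched them in most members.

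The C/D members on which the results below turn are written here 5′ to 3′ as read from GRCh37, with a C box and a D box found in those windows in capitals. They lie at chr17:62223443-62223512 on the plus strand (SNORD104), chr20:17943353-17943589 on the minus strand (SNORD17), chr1:173834760-173834824 on the minus strand (SNORD78), chr1:28905261-28905334 on the minus strand (SNORD99) and chr6:133136446-133136518 on the plus strand (SNORD101). The families are SNORD14A at chr11:17096201-17096291 and SNORD14E at chr11:122928785-122928869, both on the minus strand, SNORD12, SNORD12B and SNORD12C at chr20:47897220-47897309, chr20:47896856-47896946 and chr20:47895477-47895565 on the plus strand, and the SNORD19 copies at chr3:52723264-52723331 and chr3:52725394-52725469 on the plus strand.
SNORD104: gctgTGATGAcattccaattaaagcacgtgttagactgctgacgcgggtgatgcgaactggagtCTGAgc
SNORD17: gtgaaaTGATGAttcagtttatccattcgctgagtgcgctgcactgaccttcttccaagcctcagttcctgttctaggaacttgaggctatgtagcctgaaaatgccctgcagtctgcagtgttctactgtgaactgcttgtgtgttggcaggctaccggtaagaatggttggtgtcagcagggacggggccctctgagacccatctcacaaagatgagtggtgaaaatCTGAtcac
SNORD78: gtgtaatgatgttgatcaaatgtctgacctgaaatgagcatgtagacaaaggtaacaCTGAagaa
SNORD99: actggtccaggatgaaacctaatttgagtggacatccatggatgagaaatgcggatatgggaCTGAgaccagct
SNORD101: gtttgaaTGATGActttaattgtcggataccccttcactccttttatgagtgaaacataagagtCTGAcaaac
SNORD14A: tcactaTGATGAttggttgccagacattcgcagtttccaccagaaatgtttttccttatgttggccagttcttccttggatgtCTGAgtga
SNORD14E: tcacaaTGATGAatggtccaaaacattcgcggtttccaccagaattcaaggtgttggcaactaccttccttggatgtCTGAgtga
SNORD12: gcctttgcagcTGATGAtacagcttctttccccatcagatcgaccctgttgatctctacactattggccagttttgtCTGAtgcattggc
SNORD12B: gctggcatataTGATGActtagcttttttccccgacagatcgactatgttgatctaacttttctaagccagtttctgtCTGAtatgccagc
SNORD12C: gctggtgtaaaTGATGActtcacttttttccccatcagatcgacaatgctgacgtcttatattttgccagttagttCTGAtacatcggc
SNORD19 (upstream copy): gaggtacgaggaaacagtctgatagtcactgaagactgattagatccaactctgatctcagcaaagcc
SNORD19 (downstream copy): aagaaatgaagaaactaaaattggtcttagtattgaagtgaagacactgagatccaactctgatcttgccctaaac
Members of a family were related but not alike in sequence. Global alignment gave 77.2% identity between SNORD14A and SNORD14E, 69.5% to 74.2% among the 3 SNORD12 members and 62.3% between the SNORD19 copies. Neither SNORD19 copy held the C or D box letters within the windows searched.

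The H/ACA members and 2 scaRNAs are written in the same way, with an ACA found in the last 8 bases in capitals. They lie at chr1:28835071-28835274 on the plus strand (SNORA73B), chr6:133138358-133138487 on the plus strand (SNORA33), chr1:93306276-93306408 and chr1:93303575-93303627 on the plus strand (SNORA66, longer and shorter model), chr12:76082932-76083084 on the minus strand (SNORA70), chr10:101996913-101997059 on the minus strand (SNORA12), chr20:37055952-37056085 and chr20:37058313-37058446 on the minus strand (SNORA71A and SNORA71C), chr18:47340503-47340646 on the plus strand (SCARNA17) and chr17:7809440-7809578 on the plus strand (SCARNA21).
SNORA73B: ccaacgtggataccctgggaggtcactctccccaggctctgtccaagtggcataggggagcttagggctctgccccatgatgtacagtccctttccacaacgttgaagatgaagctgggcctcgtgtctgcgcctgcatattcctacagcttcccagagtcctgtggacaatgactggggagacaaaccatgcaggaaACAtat
SNORA33: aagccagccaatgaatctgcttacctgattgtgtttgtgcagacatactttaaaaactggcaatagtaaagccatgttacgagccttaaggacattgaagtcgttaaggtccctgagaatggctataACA
SNORA66 (longer model): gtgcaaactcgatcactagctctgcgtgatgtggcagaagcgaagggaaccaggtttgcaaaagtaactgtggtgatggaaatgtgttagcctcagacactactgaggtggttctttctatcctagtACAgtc
SNORA66 (shorter model): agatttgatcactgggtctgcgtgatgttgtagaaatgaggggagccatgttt
SNORA70: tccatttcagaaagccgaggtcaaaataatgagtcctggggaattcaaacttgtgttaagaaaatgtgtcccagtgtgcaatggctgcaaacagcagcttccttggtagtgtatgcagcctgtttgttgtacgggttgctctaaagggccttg
SNORA12: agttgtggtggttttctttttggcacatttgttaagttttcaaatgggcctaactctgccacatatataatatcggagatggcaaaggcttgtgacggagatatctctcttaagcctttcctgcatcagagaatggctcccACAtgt
SNORA71A: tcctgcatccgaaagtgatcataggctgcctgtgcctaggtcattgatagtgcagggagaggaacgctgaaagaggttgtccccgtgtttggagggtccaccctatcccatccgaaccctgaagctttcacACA
SNORA71C: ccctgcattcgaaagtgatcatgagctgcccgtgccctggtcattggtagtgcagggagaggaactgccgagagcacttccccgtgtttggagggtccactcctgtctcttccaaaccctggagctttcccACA
SCARNA17: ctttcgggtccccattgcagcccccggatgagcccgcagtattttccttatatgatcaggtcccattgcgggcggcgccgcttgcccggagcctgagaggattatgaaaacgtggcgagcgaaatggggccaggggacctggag
SCARNA21: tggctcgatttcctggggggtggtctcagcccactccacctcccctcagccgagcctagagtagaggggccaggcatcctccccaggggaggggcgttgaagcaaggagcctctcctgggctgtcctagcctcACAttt
The shorter SNORA66 model, of 53 bases, had 48 bases identical to the longer one and held no ACA at its end. SNORA71A and SNORA71C were 83.1% identical. Only 4 members of at most 300 bases had a near-identical copy elsewhere in the genome (at least 95% identity over at least 90% of the length): both SNORA75 genes on chromosome 12, SNORA59A and the SNORA22 gene with 1 such copy, so that their counts are uncertain.

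Levels were low for all members. SNORD104, in an intron of the lncRNA gene SNHG25, had the highest total (1127 counts), 22 members had at least 10 counts in each library, and 11 members had 0 counts in at least 1 library. The 5 highest members held 35.3% of all member counts. Per kilobase of gene model, the mean over the 6 libraries was 2702 normalized counts for SNORD104, 526.2 for SNORD17 and 482.9 for SNORD83A among C/D members. Among H/ACA members it was 673.8 for the shorter SNORA66 model, 422.3 for SNORA73B and 342.4 for SNORA33, and among scaRNAs 30.83 for SCARNA13, 30.7 for SCARNA9 and 27.71 for SCARNA21. The rows of 7 members had gene models longer than 300 bases, among them SNORA76, whose model of 540 bases is named SNHG25 in the annotation used, so that its counts describe that host transcript.

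Summed over the members, SNORA and SNORD counts were higher after 1 h than in vehicle cells and Nut 10h. The members took 36.2 and 47.2 CPM (counts scaled to a common library total) in the Nut 0h replicates, 67.0 and 65.7 after 1 h, and 40.3 and 46.8 after 10 h. SNORD members went from 21.9 ± 4.03 (SD, n = 2) CPM in vehicle cells to 37.3 ± 0.0566 after 1 h and 22.7 ± 2.75 after 10 h. SNORA members were at 18.8 ± 3.25, 27.0 ± 0.728 and 19.6 ± 1.58 CPM, and SCARNA members at 0.979 ± 0.507, 2.02 ± 0.258 and 1.3 ± 0.222. The Nut 1h libraries lay above all others in each class, and Nut 0h and Nut 10h overlapped. For the scaRNAs this rested on SCARNA15, the row with the longest gene model. Without it their sums were 0.564 and 0.996 CPM in vehicle cells, 1.42 and 0.806 after 1 h, and 1 and 1.06 after 10 h. Nut 1h then overlapped with both other times, while the Nut 10h libraries lay just above those of Nut 0h. With 2 libraries per group, 2 of the 6 ways to split the libraries are as extreme as any result, so that no permutation test of these sums can pass, and none was made. In bulk RNA, a change in the number of cells with an RNA cannot be told apart from a change in RNA per cell.

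**Figure D1:**
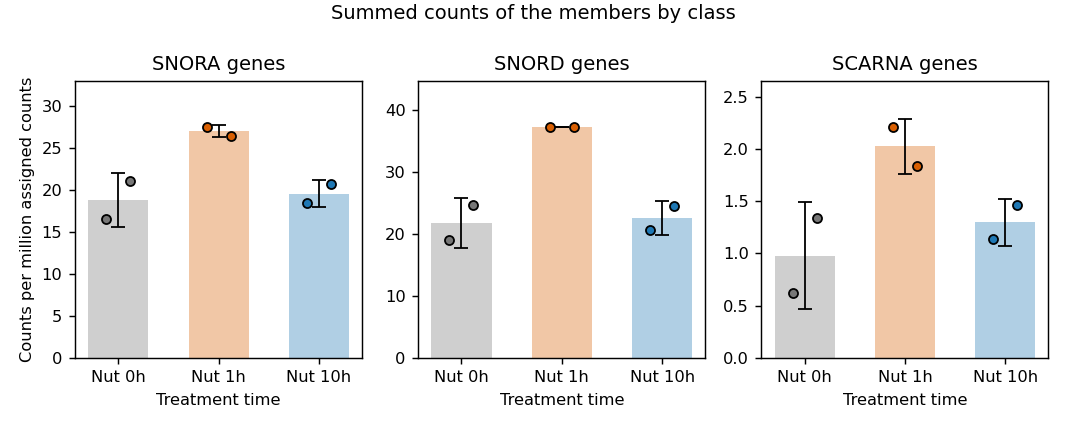
Summed counts of the SNORA, SNORD and SCARNA members as CPM of the counts assigned to genes (vertical axis, a scale of its own for each class) in the Nut 0h, Nut 1h and Nut 10h groups. Points are the 2 libraries, bars their mean and error bars the SD; the Nut 1h libraries lie above the others in all 3 classes, for SNORD members at 37.3 in each, and for SCARNA members only with SCARNA15 counted.

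After 1 h of Nutlin-3a, most snoRNA genes that changed went up. Of the 55 members that passed the low-count filter of edgeR, 28 were higher after 1 h than in vehicle cells (Nut 0h) and 2 were lower (edgeR quasi-likelihood test, Benjamini-Hochberg adjusted p of at most 0.05). Among all 16565 tested genes, 34.5% were called higher and 32.3% lower. Since 11 of the 55 members passed the filter only through their counts after 1 h, the test was also read from a fit on genes with a total of at least 20 counts, which takes in all 83 members. There, 30 members were higher and 3 lower, against 30.3% and 28.8% of the 18718 genes of that fit. The median log2 fold change over the 83 members was 0.92, against 0.06 over those 18718 genes. A total of 20 counts can also be reached through Nut 1h, as for SCARNA17, so this choice favours rises too. Of the 30 members with at least 10 counts in both Nut 0h libraries, 11 were higher (36.7%) and 2 lower in the same fit, with a median of 0.34. That choice itself favours members that were high in vehicle cells.

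The Nut 1h libraries differed from Nut 0h at 66.9% of all tested genes, and the differences went with base composition. Across all tested genes with a known GC content (n = 16137) the log2 fold change after 1 h had a correlation of -0.689 with GC content, and across the 81 members with a sequence it was -0.441. With an offset for GC content in the fit, 20 of the 55 members were higher and 2 lower after 1 h, against 20.3% and 25.3% of all genes. The part of this trend in each member's value was not tested beyond that offset. In addition, 59 of the 83 members were lower in Nut 0h replicate 1 than in replicate 2. With the first Nut 0h library dropped, the 55 tested members had a median rise of 0.65 on the log2 scale after 1 h. All tested genes had a median of 0.03 in that fit. Dropping the first Nut 1h library instead gave 0.98 for members and 0.04 for all genes. With every library kept, these medians were 0.98 and 0.05.

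Called members of both large classes mostly rose. In the fit on all members, 15 of 37 SNORD members (40.5%) were higher after 1 h and 0 lower, and 13 of 40 SNORA members (32.5%) were higher and 2 lower (5%), against 30.3% and 28.8% of all genes of that fit. The median log2 fold change over all members of each class was 1.05 for SNORD and 0.95 for SNORA. Over the members that passed the low-count filter, some of them only through Nut 1h, it was 1.06 and 0.98, a difference of 0.08. With the GC-content offset these medians were 0.65 and 0.97, so the order of the classes turned. Without Nut 0h replicate 2 the difference was 0.35. This difference rests on no test, and the classes are not shown to differ or to be alike.

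**Figure D2:**
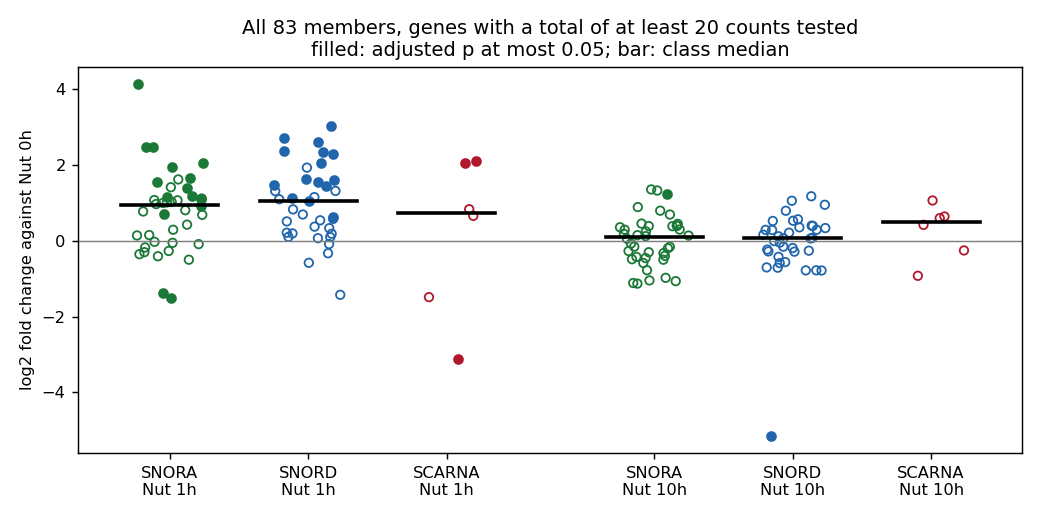
Log2 fold change against Nut 0h (vertical axis) of each of the 83 members, by class, after 1 h and Nut 10h, from the fit on genes with a total of at least 20 counts. Filled points have an adjusted p of at most 0.05 and bars are class medians, near 1 for SNORA and SNORD after 1 h and near 0 after 10 h; the lowest point, after 10 h, is SNORD88A, which had 0 counts in both Nut 10h libraries, so that its fitted value has no fixed size.

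Where the mean reached 20 normalized counts, the C/D members with the largest rises after 1 h were SNORD78, SNORD101 and SNORD99. SNORD78, in the GAS5 gene (a lncRNA gene that hosts several C/D snoRNAs), had 10.6 and 10.3 normalized counts in vehicle cells, 60.2 and 50.3 after 1 h, and 15.5 and 15.8 after 10 h. Its Nut 1h libraries stood far above the other 4, with a log2 fold change against Nut 0h of 2.39 ± 0.34 (SE, adjusted p = 2.64e-05), and 1.58 with the GC-content offset. Its interval also overlaps a GAS5 exon, and GAS5 itself rose by 0.90, or by 0.20 with the GC-content offset. SNORD101, in the ribosomal protein gene RPS12, was at 7.73 and 15 normalized counts in vehicle cells, 49.2 and 47.8 after 1 h, and 13.5 and 16.7 after 10 h (Nut 1h against Nut 0h 2.08 ± 0.37, adjusted p = 0.000202, and 1.28 with the GC-content offset). SNORD99, in the lncRNA gene SNHG12, was at 15.5 and 21.6, then 56.2 and 46.6, then 16.4 and 8.37 normalized counts (1.47 ± 0.35, adjusted p = 0.00187). In each of these genes, the Nut 1h libraries did not overlap with the others. Between Nut 1h and Nut 0h this was so for 84.8% of all tested genes. It was also so for 52 of the 83 members, 47 of them upward, and 28 of the 83 did not pass the low-count filter.

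The most abundant C/D members moved less. SNORD17 was at 99.5 and 100 normalized counts in vehicle cells, 155 and 160 after 1 h, and 108 and 125 after 10 h. This was a rise of 0.66 ± 0.17 after 1 h (SE, adjusted p = 0.00308). SNORD104 had 184 and 199 normalized counts in vehicle cells, 188 and 219 after 1 h, and 186 and 160 after 10 h. Its Nut 0h libraries overlapped with both other times (0.08 ± 0.15 after 1 h, adjusted p = 0.647). The Nut 1h libraries lay above those of Nut 10h (Nut 10h against Nut 1h -0.23, adjusted p = 0.194, but -0.41 and 0.0197 with the GC-content offset). SNORD83A, in the ribosomal protein gene RPL3, was at 39.6 and 42.3, then 53.2 and 54.1, then 37.7 and 48.4 normalized counts (0.39 ± 0.26, adjusted p = 0.199, but 0.79 and 0.0212 with the GC-content offset).

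Several C/D members with fewer counts gave larger fold changes, and were picked here after their values were seen. SNORD14E, SNORD6 and SNORD11 passed the low-count filter only through their Nut 1h counts, so they had to differ to be tested at all, and their values are a description. SNORD14E, in an intron of the chaperone gene HSPA8, had 7.73 and 8.45 normalized counts in vehicle cells, 41.1 and 40.3 after 1 h, and 5.8 and 8.37 after 10 h (2.31 ± 0.39 after 1 h, adjusted p = 0.000119). Its relative SNORD14A, in the ribosomal protein gene RPS13, started higher, at 18.4 and 34.7, and went to 55.2 and 62.9 (1.14 ± 0.32, adjusted p = 0.00556, but 0.63 and 0.102 with the GC-content offset), before 30.0 and 35.4 after 10 h. The difference between these 2 fold changes was not tested. SNORD6, in TAF1D, went from 3.87 and 5.63 normalized counts to 28.1 and 21.4 (2.36 ± 0.51, adjusted p = 0.00104). SNORD11, in an intron of NOP58, the gene of a C/D core protein, went from 0.966 and 2.82 to 13 and 13.8 (2.74 ± 0.67, adjusted p = 0.00231). SNORD11 rests on 4 counts in both Nut 0h libraries together with 24 in both Nut 1h libraries, and its size is accordingly loose.

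**Figure D3:**
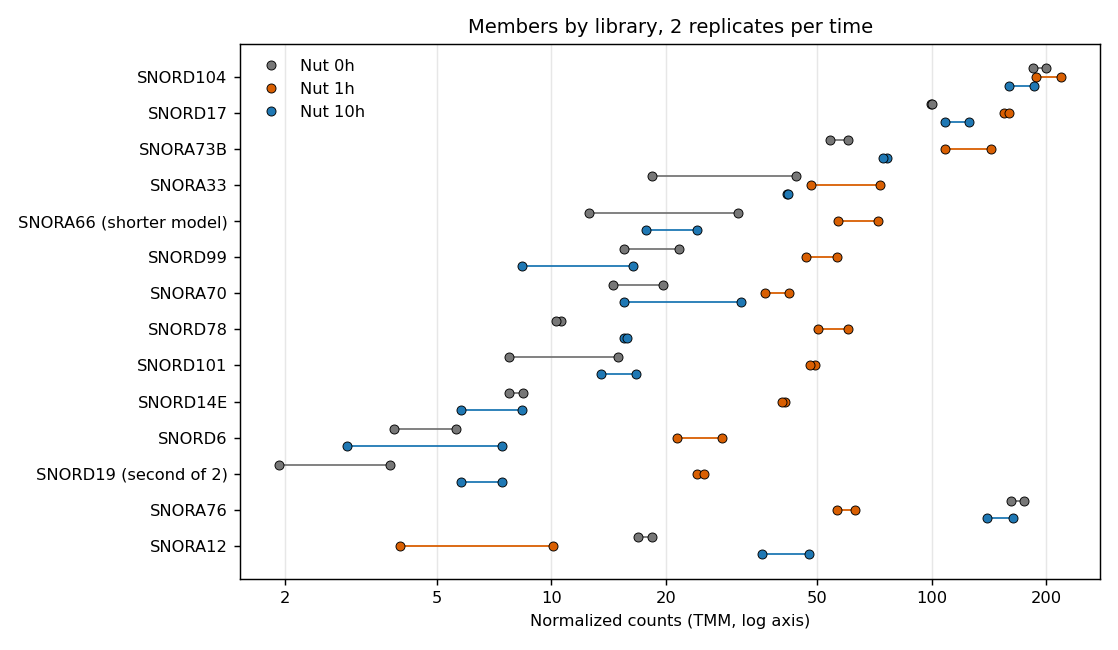
Normalized counts (horizontal log axis) of 14 members in each of the 6 libraries; points are libraries, a line joins the 2 replicates of a time, and colours mark Nut 0h, Nut 1h and Nut 10h. SNORA66 is the 53-base model and SNORD19 the downstream copy. In most rows Nut 1h lies to the right of the other times, as for SNORD78 at 60.2 and 50.3, while SNORA76 and SNORA12 lie to the left of them.

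Among H/ACA members, SNORA73B, the shorter SNORA66 model and SNORA70 had the largest rises in the same range of abundance. SNORA73B, in an intron of RCC1 and among H/ACA RNAs known for a role in early processing of ribosomal RNA rather than pseudouridylation, was at 54.1 and 60.1 normalized counts in vehicle cells, 108 and 143 after 1 h, and 76.4 and 74.4 after 10 h. Its rise after 1 h was 1.13 ± 0.21 (SE, adjusted p = 0.000306), and 1.54 with the GC-content offset, while RCC1 was at -0.16 (adjusted p = 0.155). The shorter SNORA66 model, in RPL5, was at 12.6 and 31.0, then 72.2 and 56.6, then 24.2 and 17.7 normalized counts (1.56 ± 0.36, adjusted p = 0.00159). The longer SNORA66 model in the same host was at 10.6 and 8.45, then 24.1 and 18.9, then 12.6 and 10.2 (1.18 ± 0.42, adjusted p = 0.0247, but 0.97 and 0.0785 with the GC-content offset). Both lie opposite DIPK1A, and without a stated strand setting reads of that gene cannot be told apart from theirs, as for 16 members with a gene on the opposite strand. SNORA70 was at 14.5 and 19.7, then 42.1 and 36.5, then 15.5 and 31.6 normalized counts (1.2 ± 0.38, adjusted p = 0.0127), and its call was lost with the GC-content offset (0.87, adjusted p = 0.0628) and with Nut 0h replicate 1 or Nut 1h replicate 1 left out (0.998 and 1.09, adjusted p = 0.0571 and 0.0853).

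The 2 H/ACA members that were lower after 1 h were SNORA76 and SNORA12. The SNORA76 row, which covers the SNHG25 transcript, was at 175 and 161 normalized counts in vehicle cells, 56.2 and 62.9 after 1 h, and 163 and 140 after 10 h. The fall was -1.50 ± 0.18 (SE, adjusted p = 7.73e-06), and -0.61 with the GC-content offset at a transcript GC content of 61.1%. SNORD104, which lies inside the same gene, did not pass the test after 1 h, as given above. SNORA12, in an intron of CWF19L1, was at 18.4 and 16.9 normalized counts in vehicle cells, 4.01 and 10.1 after 1 h, and 35.8 and 47.5 after 10 h. It was thus lowest after 1 h (-1.37 ± 0.50, adjusted p = 0.0268) and highest after 10 h (1.24 ± 0.36 against Nut 0h, adjusted p = 0.0186), with no overlap between the times. Its host was at 0.27 and -0.63 at these times, the first a call lost with the GC-content offset (-0.14, adjusted p = 0.114). The SNORA12 calls depended on the setting: after 1 h its adjusted p was 0.266 without Nut 1h replicate 1, 0.0623 with Nut 0h replicate 1 left out and 0.0593 in DESeq2, and after 10 h 0.107 without Nut 10h replicate 2 and 0.0803 in DESeq2.

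ScaRNA genes had few counts, and 3 of the 6 passed the low-count filter. SCARNA15 was at 1.93 and 11.3 normalized counts in vehicle cells, 25.1 and 34.0 after 1 h, and 4.83 and 13 after 10 h (2.12 ± 0.58 after 1 h, adjusted p = 0.00536), and at 1.38 with the GC-content offset (adjusted p = 0.0523). Its gene model spans 4325 bases and overlaps SNHG21, so its counts need not come from the scaRNA. SCARNA9 was at 5.8 and 12.2, then 23.1 and 8.81, then 6.77 and 8.37 normalized counts, and SCARNA13 at 5.8 and 6.57, then 12 and 7.55, then 7.73 and 11.2. Neither passed the test after 1 h (adjusted p = 0.178 and 0.291). The other 3 were tested only in the fit on all members. SCARNA17 had 2 and 2 counts in vehicle cells, 8 and 7 after 1 h, and 2 and 0 after 10 h (adjusted p = 0.0464 after 1 h). SCARNA17 reached the total needed for membership only through its Nut 1h counts. It thus had to be high after 1 h to be tested at all, and its values are a description. SCARNA2, which has its own promoter and no host here, went the other way, with 5 and 7 counts in vehicle cells, 1 and 0 after 1 h, and 10 and 9 after 10 h (adjusted p = 0.0205 after 1 h). SCARNA21 had 1 and 6 counts, then 1 and 1, then 8 and 7 (adjusted p = 0.267). SCARNA2, SCARNA17 and SCARNA21 have GC contents of 65.8%, 61.1% and 64.0%.

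Of the 9 members with no host, 2 were higher and 2 lower after 1 h in the fit on all members, and the 55 members inside introns had 22 higher and 1 lower. These are 22.2% each way and 40% and 1.82%, against 30.3% higher and 28.8% lower among all genes of that fit. The called members with no host were SCARNA15 and a SNORA75 copy, upward, and SNORA76 and SCARNA2, downward. Of these, the SCARNA15 and SNORA76 rows are the long models described above. The SNORA75 copy has a near-identical copy elsewhere in the genome, so its counts are uncertain too. That copy also reached the total needed for membership only through its Nut 1h counts, so its rise is a description. The difference between these sets was not tested. SNORD3A, a gene of the abundant C/D RNA U3 that has its own promoter, was at 12.6 and 28.2 normalized counts in vehicle cells, 12 and 21.4 after 1 h, and 22.2 and 31.6 after 10 h (-0.32 ± 0.47 after 1 h, adjusted p = 0.566). TERC, the telomerase RNA, shares the H/ACA fold and its proteins but has its own promoter. It was at 77.3 and 69.5 normalized counts in vehicle cells, 6.02 and 5.03 after 1 h, and 157 and 156 after 10 h. It fell after 1 h by 3.69 on the log2 scale (SE 0.33, adjusted p = 5.5e-07), or by 2.28 with the GC-content offset, and rose after 10 h by 1.09 against Nut 0h (adjusted p = 0.000472). RMRP and RN7SK, other short RNAs with promoters of their own, were at -1.59 and -1.14 after 1 h (adjusted p = 0.00138 and 0.0166). RN7SK was at -0.51 with the GC-content offset (adjusted p = 0.272), and RMRP had no GC value. TERC, RMRP and RN7SK were picked after their values were seen and are the 3 that were lower among 15 tested genes for spliceosomal, Y and other small RNAs, of which 7 were higher, with a median of 0.88.

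Of the hosts, 4 held 3 tested members each. In RPS12, SNORD100 went from 4.83 and 14.1 normalized counts in vehicle cells to 29.1 and 31.5 after 1 h and 16.4 and 11.2 after 10 h (1.65 ± 0.46 after 1 h, adjusted p = 0.00577), a call lost with Nut 0h replicate 1 left out (1.09, adjusted p = 0.055). SNORA33 in the same gene went from 18.4 and 44.1 to 48.1 and 73.0 and then 41.6 and 41.9 (0.93 ± 0.36, adjusted p = 0.0331), and its call was lost under 4 alternatives: when Nut 0h replicate 1 (0.44, adjusted p = 0.267) or Nut 1h replicate 2 (0.62, 0.244) was left out, with the GC-content offset (0.31, 0.485) and with DESeq2 (0.92, 0.0621). With SNORD101 above, all 3 RPS12 members passed after 1 h, while RPS12 itself was at 0.21 (adjusted p = 0.0718).

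In GNL3, a nucleolar GTPase gene, the downstream SNORD19 copy went from 1.93 and 3.76 normalized counts in vehicle cells to 24.1 and 25.2 after 1 h, and was at 5.8 and 7.44 after 10 h (3.05 ± 0.53 after 1 h, adjusted p = 0.000163, and 2.19 with the GC-content offset). The upstream SNORD19 copy went from 6.77 and 7.51 to 19.1 and 21.4 and then 7.73 and 13 (1.48 ± 0.46, adjusted p = 0.0119), a call lost under 3 alternatives: with the GC-content offset (1.14, adjusted p = 0.0565), with DESeq2 (0.0735) and without Nut 1h replicate 2 (0.0563). Both copies passed the low-count filter only through their Nut 1h counts, so their values are a description. SNORD69 went from 9.66 and 19.7 to 30.1 and 34.0 and then 12.6 and 4.65 (1.11 ± 0.44, adjusted p = 0.0382), a call that was lost under 6 of the alternatives, without Nut 0h replicate 1, Nut 1h replicate 1 or Nut 1h replicate 2 among them (adjusted p = 0.214, 0.091 and 0.133). GNL3 itself rose by 0.52 after 1 h but was at -0.077 with the GC-content offset (adjusted p = 0.415).

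In ZFAS1, a lncRNA gene that hosts the SNORD12 family, none of SNORD12, SNORD12B and SNORD12C passed after 1 h, with log2 fold changes of 0.60, 0.20 and 0.52 (edgeR adjusted p from 0.268 to 0.602). SNORD12B was at 23.2 and 39.4 normalized counts in vehicle cells, 40.1 and 31.5 after 1 h, and 40.6 and 36.3 after 10 h, so that the times overlapped. ZFAS1 rose by 0.32, a call lost with the GC-content offset (0.03, adjusted p = 0.754). In SNHG17, SNORA71C passed after 1 h (26.1 and 34.7 normalized counts in vehicle cells, 52.2 and 47.8 after 1 h, 20.3 and 24.2 after 10 h; 0.72 ± 0.29, adjusted p = 0.0394), whereas SNORA71A and SNORA71B were at 0.16 and 0.31 (adjusted p = 0.715 and 0.5). SNHG17 was at 0.03 (adjusted p = 0.803). The SNORA71C call was lost under 5 alternatives: without Nut 0h replicate 1, Nut 1h replicate 1 or Nut 1h replicate 2 (adjusted p = 0.22, 0.181 and 0.0895), with no low-count filter (0.0591) and with DESeq2 (0.163), while it was at 1.32 with the GC-content offset.

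Host genes mostly had lower log2 fold changes after 1 h than the members inside them. For 47 pairs in which member and host were both tested (38 hosts), the median log2 fold change after 1 h was 1.06 for members and 0.28 for hosts, and the member's value was above its host's in 40 pairs. Members that passed the filter only through Nut 1h favour that order. In the fit on all members, whose total of 20 counts also includes Nut 1h, the medians over 66 pairs were 0.83 and 0.27. The member was above its host in 51 of them. Of the 26 members of the 47 pairs that were higher after 1 h, the host was higher for 14, lower for 5 and not called for 7. With the GC-content offset, the hosts of these 26 were higher for 8, lower for 6 and not called for 12. In the offset fit the median was 0.87 for members and 0.11 for hosts, with the member above in 40 pairs. The correlation across pairs was 0.358 after 1 h, or 0.0639 with the offset, and 0.101 after 10 h, a description only, since pairs share hosts and libraries and many members have few counts. The highest-count containing gene was also taken as the host, chosen after seeing the data because SNORD17 lies within SNX5 and also a long OVOL2 model. The correlation was then 0.381 over 48 pairs after 1 h. Hosts of the 26 higher members were then higher for 15, lower for 4 and not called for 7. At Nut 10h the medians were 0.08 for members and -0.13 for hosts, and members were above their hosts in 28 of 47 pairs.

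**Figure D4:**
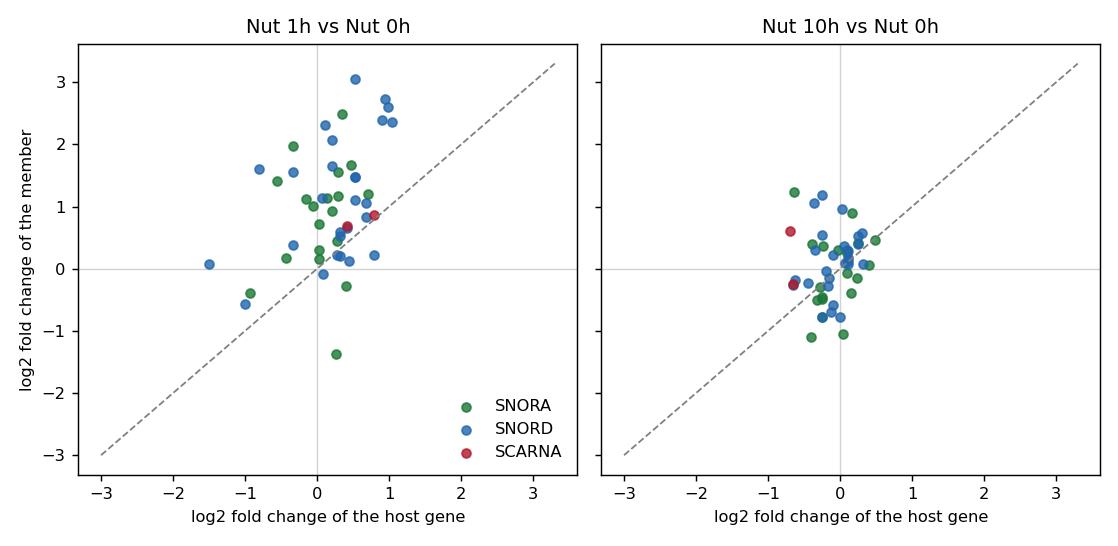
Log2 fold change of the member (vertical axis) against that of its host gene (horizontal axis), after 1 h and Nut 10h against Nut 0h, for 48 pairs, with the containing gene of the highest mean count as the host. The dashed line marks equal change; after 1 h 41 of the 48 points lie above it, and after 10 h 28.

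After 10 h of Nutlin-3a, few members differed from vehicle cells by the test. SNORA12 was the only tested member called after 10 h against Nut 0h, upward, with edgeR, while 14.1% of all tested genes were called higher and 14.9% lower. At an unadjusted p under 0.05 there were 3 members, and DESeq2 called 0. In the fit on all members, SNORA12 and SNORD88A were called, against 12.3% higher and 12.7% lower among all genes. SNORD88A had 4 and 5 counts in vehicle cells, 11 and 2 after 1 h, and 0 in both Nut 10h libraries, where a count of 0 allows up to 3 counts. The median log2 fold change after 10 h was -0.07 for SNORA, 0.17 for SNORD and 0.43 for SCARNA members, against 0.00017 for all tested genes. Over all members of each class it was 0.09, 0.07 and 0.51, so the sign for SNORA and the order of SNORA and SNORD turned. The median over tested members, 0.13, depended on single libraries: it was -0.08 with the first Nut 0h library left out and 0.45 with the other left out, and likewise 0.25 and -0.05 for the Nut 10h libraries. The Nut 10h and Nut 0h libraries did not overlap for 20 of the 83 members, against 61.4% of the tested genes. Of the 83, 28 did not pass the low-count filter that the tested genes passed.

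From Nut 1h to Nut 10h, 26 members fell and 2 rose (SNORA76 and SNORA12), against 33.7% lower and 34.2% higher among all tested genes. In the fit on all 83 members, 29 were lower and 4 higher, against 29.8% and 30.9% of all genes. This comparison shares the Nut 1h libraries with that of Nut 1h against Nut 0h, so the falls are not a further line of evidence. SNORD99 fell by 2.05 and SNORD78 by 1.82 on the log2 scale (adjusted p = 0.000218 and 0.000149). The count depended on single libraries, with 17 members called without Nut 1h replicate 1, without Nut 1h replicate 2 or without Nut 10h replicate 1.

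Genes for the proteins that bind, assemble, transport or trim these RNAs changed in both directions at 1 h and mostly downward at 10 h. All 31 genes of the list were tested, 3 of them under an older symbol. At Nut 1h, 17 were higher and 8 lower, and after 10 h, 3 were higher and 12 lower (edgeR, background as given above). With the GC-content offset, 12 were higher and 10 lower after 1 h, and 4 and 15 after 10 h, where 16.9% of all genes were higher and 22.4% lower in that fit. With the first Nut 0h library dropped, the 31 genes had a median of -0.18 on the log2 scale after 10 h, and all tested genes 0.007. With every library kept, these medians were -0.17 and 0.0002.

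The 4 genes of the C/D core proteins were all lower after 10 h. Fibrillarin (FBL), the methyltransferase, was at -0.27 (adjusted p = 0.0478), the scaffold genes NOP56 and NOP58 at -0.33 and -0.35 (adjusted p = 0.0166 and 0.00984), and SNU13, which binds the box C/D RNA fold first, at -0.26 (adjusted p = 0.0418). At Nut 1h they were split, with NOP58 at 0.95 and NOP56 at 0.27, and FBL and SNU13 at -0.49 and -0.43. With the GC-content offset NOP58 was at 0.33, and the FBL call was lost (-0.12, adjusted p = 0.199). Of the H/ACA core genes, DKC1, the pseudouridine synthase, was at 0.73 after 1 h and -0.31 after 10 h (adjusted p = 7.37e-06 and 0.0197). GAR1 was at 1.31 and NHP2 and NOP10 at -0.86 and -0.91 after 1 h, and these 3 did not pass after 10 h. With the offset, DKC1, GAR1, NHP2 and NOP10 were at 0.36, 0.82, -0.29 and -1.42 after 1 h, all called.

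COIL, the gene of the Cajal body scaffold coilin, was at 0.66 after 1 h, a call lost with the GC-content offset (0.13, adjusted p = 0.136), and did not pass after 10 h (0.14, adjusted p = 0.301). The other of the 2 Cajal body genes on the list went the other way and was called lower at both times, with and without the offset. TOE1, a deadenylase that trims the 3′ ends of small RNAs in Cajal bodies, fell by 1.05 after 10 h and was at 0.04 after 1 h (adjusted p = 0.763), but was called higher there with the offset (0.32, adjusted p = 0.00562). Among the others, DBR1, which opens intron lariats, was at 0.80 after 1 h and at 0.04 with the GC-content offset, where its call was lost (adjusted p = 0.74). TGS1, the cap hypermethylase, was at 1.08 and 0.44 after 1 h and 10 h (0.46 after 1 h with the offset), and the nuclear exosome gene EXOSC10 at -0.31 and -0.40.

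**Figure D5:**
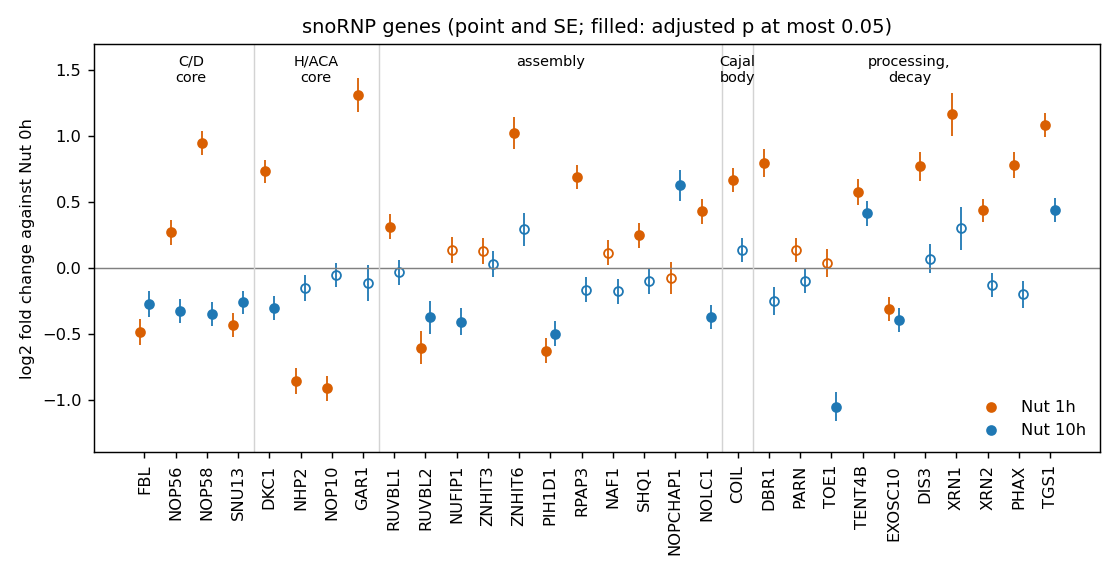
Log2 fold change against Nut 0h (vertical axis) of snoRNP genes, grouped by role, after 1 h and 10 h. Points are fitted values, error bars the SE, and filled points have an adjusted p of at most 0.05; the 4 C/D core genes lie below 0 after 10 h, as does TOE1 at -1.05.

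Other short RNA genes also changed in both directions after 1 h, where 34.5% of all tested genes were higher and 32.3% lower. Of 38 tested genes with MIR symbols, 14 were higher (36.8%) and 7 lower (18.4%), with a median log2 fold change of 0.23, and of 0.70 with the GC-content offset. Of 15 tested genes for spliceosomal, Y and other small RNAs, 7 were higher (46.7%) and 3 lower (20%), with a median of 0.88, and of 0.54 with the offset. Of 4 tested sense intronic genes, 1 was higher and 1 lower. At Nut 10h the counts were 4 and 2, 3 and 0, and 1 and 0, where 14.1% of all tested genes were higher and 14.9% lower. After 1 h in the fit on genes with a total of at least 20 counts, 20 of 64 MIR genes were higher (31.2%) and 8 lower (12.5%). In that fit, 8 of 33 genes for spliceosomal, Y and other small RNAs were higher (24.2%) and 4 lower (12.1%). Among all genes of that fit, 30.3% were higher and 28.8% lower. Whether these shares differ from those of the members was not tested.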

How the data were processed

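RNA-seq of HCT116 cells treated for 0, 1 or 10 h was used, with 2 biological replicates per time and groups taken from the sample labels. The authors trimmed reads with Trim Galore 0.6.6, aligned them to GRCh37 with STAR 2.7.0f and counted them per gene with featureCounts (Subread 2.0.0), and the deposited matrix holds raw counts for 57905 genes. The strand setting and the treatment of reads with several hits are not given in the sources used here. The deposited table of the authors' DESeq2 comparisons, which holds their fold changes and p-values, was used for gene symbols only.

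Counts were filtered with filterByExpr (16565 genes kept), normalized by TMM and fitted over all 6 libraries with edgeR 4.0.16 (limma 3.58.1, R 4.3.3), with time as the only term and 3 residual degrees of freedom. Genes with a Benjamini-Hochberg adjusted p of the quasi-likelihood test of at most 0.05 were called. The p-values measure the spread between these libraries. Normalized counts are counts scaled to the mean TMM-scaled library size. Intervals and limits cover counting error only. The procedure was tested on simulated data. Positions, hosts and sequences were read from the GRCh37 genome and GENCODE annotation, and megablast was used for copies.

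The members and gene lists were chosen with earlier results of these data known. The members named were, in each class, the 3 highest per kilobase and the 3 largest rises and falls against Nut 0h among called members whose mean reached 20 normalized counts and whose libraries did not overlap between groups, then all scaRNAs and the hosts with at least 3 tested members. SNORD14A, SNORD14E, SNORD6, SNORD11, SNORD3A, SNORD88A, the SNORA75 copy, the longer SNORA66 model and TERC, RMRP and RN7SK were named after their values were seen. Alternatives were other normalizations (RLE, upper quartile), filters, thresholds, DESeq2 1.42.0, a fit of 2 groups only, a replicate block, a GC-content offset and each library left out. The other data types of the study were not used here, and 1 gene of the snoRNP list enters its counts but is not reported here singly.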

Additional observations from a re-analysis of the deposited data

Results flagged for a closer look

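SNORA12 moved in opposite directions at the 2 treatment times, falling after 1 h and rising after 10 h against vehicle cells. The difference between the times was tested directly, with a log2 fold change of 2.6 for Nut 10h against Nut 1h (edgeR adjusted p = 0.000126) and no overlap between the 2 libraries of each time. The counts behind it were 19 and 18 in vehicle cells, 4 and 8 after 1 h, and 37 and 51 after 10 h.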

How the results depend on the processing

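Of 374 recomputed values of single named members, 337 kept their direction and side of the threshold, 28 kept the direction but lost the call, 1 gained it and 8 changed sign, all 8 of them values that had not been called. The alternatives in normalization (RLE, upper quartile) changed no count of calls by over 1.5 times. With 30 members called for Nut 1h against Nut 0h, 9 were called with a minimum count of 50, where 12 members were left to test, 19 at an adjusted p of at most 0.01, and 14 among members with at least 10 counts in both vehicle libraries, a choice made after seeing the data. For Nut 10h against Nut 0h, the 1 call became 2 with no low-count filter or with a total of at least 20 counts, and 0 with a minimum count of 50, with DESeq2 or at an adjusted p of at most 0.01. It ranged from 1 to 3 with a library left out. Without Nut 10h replicate 2 the call was another member, downward. For Nut 10h against Nut 1h, the 28 calls became 8 with a minimum count of 50, 16 with DESeq2 and 15 at an adjusted p of at most 0.01, and ranged from 17 to 28 with a library left out. Calls among snoRNP genes after 10 h ranged from 9 to 15 with a library left out, against 15 with all. Calls among other short RNA genes went from 33 to 15 after 1 h with a minimum count of 50, and from 10 to 6 after 10 h with DESeq2. The cause of these shifts was not tested where fewer genes or samples do not give it.

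The median log2 fold change of SNORD minus SNORA members after 1 h was 0.08 and became -0.32 with the GC-content offset, and it ranged from 0.028 to 0.35 with a library left out. The members' share of counts, 66.3 CPM after 1 h, was 72.3 outside the mitochondrial genome and 60.1 without SNORD104, and after 10 h it was 38.3 without SNORD104 against 43.5. The correlation of members with hosts after 1 h was 0.463 for members in introns with no exon over them and 0.0639 with the GC-content offset, which was added after seeing the data. Values that had not been called changed sign after 1 h for SNORD12C and SNORD12B with the GC-content offset (-0.058 and -0.37). They also did so with a library left out, with ranges of -0.036 to 1.49 for SCARNA9, -0.029 to 0.194 for SNORD104, -0.13 to 0.64 for SNORD12B, -0.033 to 0.305 for SNORA71A and -0.054 to 0.806 for SNORA71B.

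With the replicate number as a block, 30 members were called for Nut 1h against Nut 0h, 1 for Nut 10h against Nut 0h and 27 for Nut 10h against Nut 1h. The replicate number is not stated to mark a shared batch. Deviations of same-numbered libraries correlated by -0.149, 0.221 and -0.138, and whether these libraries shared a batch was not tested. With 2 libraries per group and mostly under 50 counts per member and library, depth limits the size of a change that can be seen in low members. A lone library left in a group was assumed to vary like the other groups.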
